A study of Mus musculus with 15 samples.

Results

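Store-operated calcium entry and calcium pumping were followed at the RNA level through 10 genes: the sensors Stim1 and Stim2, the pore subunits Orai1, Orai2 and Orai3, the release channels Itpr1 and Itpr2, the endoplasmic reticulum pumps Atp2a2 and Atp2a3, and the plasma membrane pump Atp2b1. They were chosen by name as parts of this pathway and make up 10 of the 78317 gene identifiers in the count table. The study exposed MH-S cells, an SV40-transformed murine alveolar macrophage line, for 24 h in 5 groups of 3 RNA-seq libraries. M0 cells received medium alone. M1 cells received lipopolysaccharide (LPS) at 1 µg/mL with interferon-γ at 20 ng/mL, and M2 cells received interleukin-4 at 20 ng/mL. The 2 microrod groups received rods built from calcium phosphate (CaP) or silica (SiO2) nanoparticles at 0.1 mg/mL each, both coated with the same polymer layers. Both were first cross-linked with alginate and calcium chloride, so the SiO2 rods may also hold some calcium. Since the materials differ in density, the same mass need not hold the same number of rods. As calcium phosphate dissolves in acid, the comparisons ask whether genes that sense, admit and clear Ca2+ differed after exposure to rods with a calcium phosphate framework.

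In resting cells the endoplasmic reticulum holds Ca2+ far above the cytosol. IP3 receptors let it out on a signal, STIM proteins in the membrane of the reticulum sense the loss and open ORAI channels in the plasma membrane, SERCA pumps (Atp2a genes) refill the store, and PMCA pumps (Atp2b genes) push Ca2+ out of the cell. In macrophages this loop has been linked to phagocytosis, cytokine production and the calcineurin to NFAT pathway. All are regulated largely as proteins, by Ca2+, lipids and phosphorylation, which RNA levels do not show.

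Total counts per library ranged from 8459643 to 68750050. All 7 general macrophage markers were present at a mean of at least 5 counts scaled to library size (CPM) in every group, with summed levels of 1434 to 3659 CPM. The sum was lowest in the M2 libraries (1434 to 2206 CPM), where Lyz2 fell from a mean of 1847 CPM in M0 to 368 CPM while Adgre1 rose from 61.8 to 195 CPM and the other 5 were not called. None of 9 alveolar macrophage markers reached that mean in any group, and their summed level was 3.13 to 6.22 CPM, with 1 to 4 of the 9 at 0 in all libraries of a group. Summed epithelial, fibroblast, endothelial and lymphocyte markers stayed at or below 1.77 CPM in each library. On the second principal component, M0 replicate 3 (-42.7), M2 replicate 2 (-43.9) and SiO2 replicate 2 (-21.7) stood apart from the other 12 libraries (-4.36 to 21.3). The replicates were wells of the same cell passage, with a separately prepared particle batch in each well of a rod group, so p-values measure the spread between wells and, for the rods, also between batches. In bulk RNA, fewer cells using a gene and less RNA per cell cannot be told apart.

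All 10 genes passed the filter on low counts, and 1 of them was called in 1 comparison. A gene was called (a DEG) at an edgeR quasi-likelihood adjusted p under 0.05 with an absolute log2 fold change over 0.5. Itpr2 rose in M1 against M2, 1 of 10 genes, where 16.1% of all genes tested were called. The other comparisons called 0 of the 10. Against M0 the share of all genes called was 14.1% for M1, 4.13% for M2, 0.409% for CaP microrods and 0.0602% for SiO2 microrods, and between the rods it was 0.0241%. DESeq2 also called 0 of the 10 in these 5 comparisons. At an unadjusted p under 0.05 the counts were 0 for M1, 2 for M2 (Atp2b1 and Atp2a3), 2 for CaP microrods (Orai1 and Atp2a3), 0 for SiO2 microrods and 0 between the rods, where 27.7%, 17.2%, 18%, 9.27% and 1.87% of all genes lay under it. The comparisons with M0 share its 3 libraries.

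For most of the genes these libraries leave room for a change as large as the fold limit of a call. Against M0, the 95% interval of log2 fold change stayed inside that limit only for Atp2b1 after CaP (-0.31 to 0.43) and SiO2 microrods (-0.39 to 0.35). In M1 it did so only for Atp2a2 (-0.49 to 0.35), and in M2 for no gene. Between the rods it did so for Atp2a2 (-0.47 to 0.36) and Atp2b1 (-0.29 to 0.45). A limit of 2-fold is wider. The 95% interval of the fold change stayed within 2-fold in either direction for 7 of 10 genes in M1 against M0, 7 in M2 against M0, 6 in CaP microrods against M0, all 10 in SiO2 microrods against M0, and 9 between the rods. Over the 10 genes the median log2 fold change was 0.11 for M1, -0.09 for M2, -0.12 for CaP microrods and -0.05 for SiO2 microrods. The medians over all genes tested were -0.01, 0.07, 0.06 and -0.02 in the same order.

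**Figure D1:**
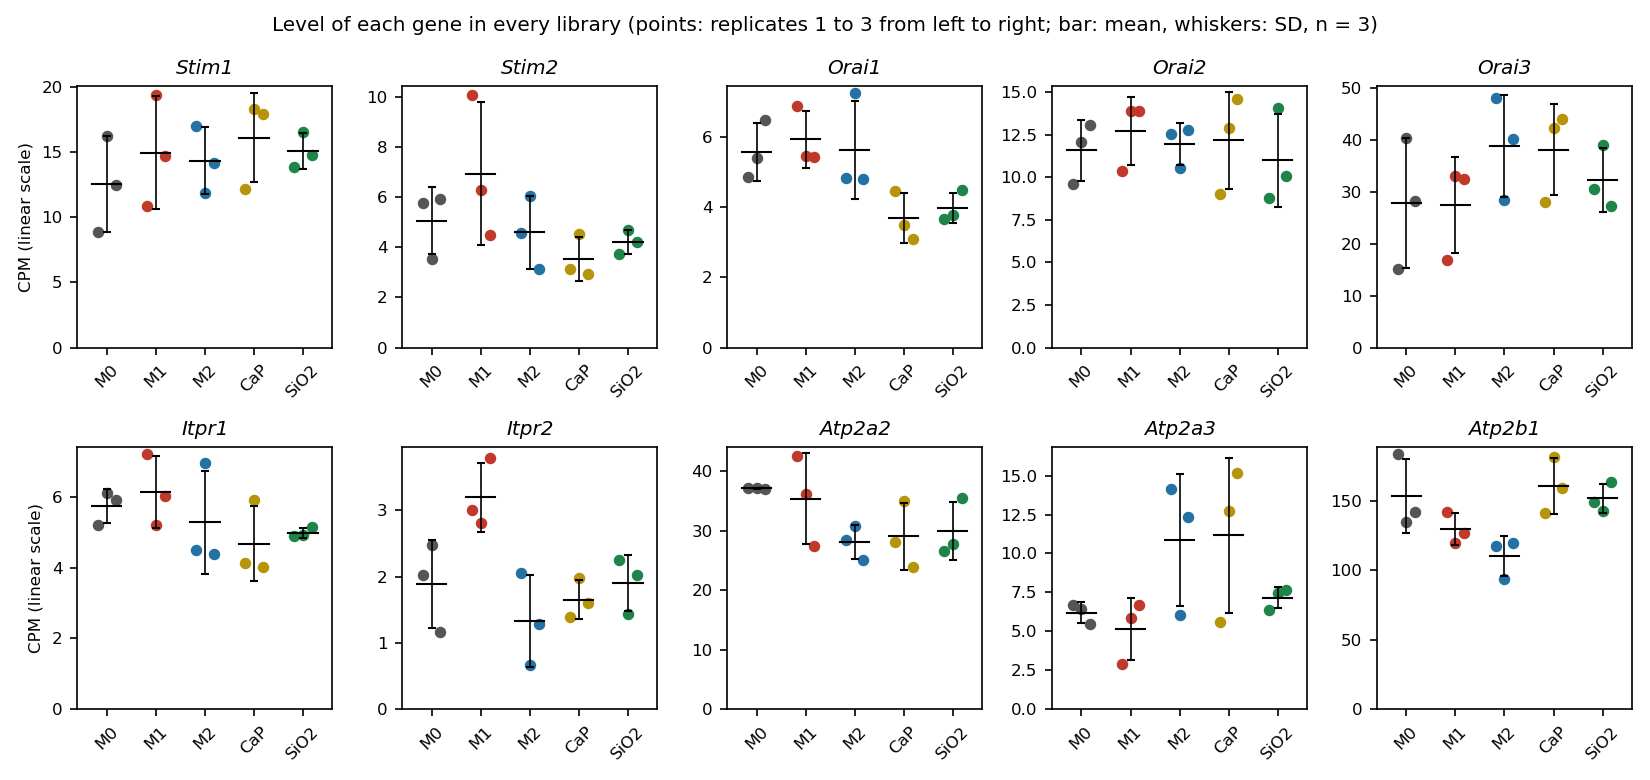
CPM of each of the 10 genes in every library (linear axes from 0, points are replicates, bars and whiskers are mean and SD of 3). Itpr2 is highest in the 3 M1 libraries (2.80 to 3.79 CPM), and the 6 rod libraries of Orai1 (3.09 to 4.48 CPM) lie below the other 9.

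Neither sensor passed the test in any comparison with M0. Stim1, the main sensor of an emptied store, measured 8.90, 16.3 and 12.5 CPM in M0 and 12.2, 18.3 and 17.9 CPM after CaP microrods. Its mean was highest after CaP microrods (16.1 ± 3.42 CPM, SD, n = 3) and lowest in M0 (12.6 ± 3.68 CPM), a ratio of 1.28, and every pair of neighbouring groups overlapped. Stim2, which responds to smaller losses and sets resting Ca2+, had its lowest mean after CaP microrods. Its levels were 5.77, 3.51 and 5.91 CPM in M0, 10.1, 6.29 and 4.47 CPM in M1, and between 2.92 and 4.54 CPM in the 3 CaP microrod libraries. The M1 libraries alone spread more than 2-fold, and those of M0 and CaP microrods overlapped. Against M0, Stim2 had a log2 fold change of -0.56 (SE 0.27, adjusted p 0.307) after CaP microrods and -0.27 (SE 0.27, adjusted p 0.833) after SiO2 microrods.

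Orai1, the classical pore subunit of store-operated entry, was the gene whose rod libraries lay together below the rest. It measured 4.85, 5.40 and 6.49 CPM in M0, 4.47, 3.48 and 3.09 CPM after CaP microrods, and 3.67, 3.78 and 4.48 CPM after SiO2 microrods. Neither rod group overlapped M0, which held for 17.4% (CaP) and 18% (SiO2) of all genes tested. The M1 (5.44 to 6.88 CPM) and M2 (4.79 to 7.24 CPM) libraries were also above all 6 rod libraries. Such a split, looked for after the values were seen, held for 23 of the 16654 genes tested (0.138%), or 90 (0.540%) counting rods above the rest as well, and for 1 of the 10, Orai1. The log2 fold change against M0 was -0.56 (SE 0.23, 95% interval -1.07 to -0.06, adjusted p 0.238) for CaP microrods and -0.45 (SE 0.23, 95% interval -0.97 to 0.06, adjusted p 0.589) for SiO2 microrods, so neither passed the test. Between the rods it was -0.11 (95% interval -0.62 to 0.40).

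Orai2 and Orai3, subunits that assemble with or beside Orai1, showed no such separation. Orai2 ranged from 8.81 to 14.6 CPM over the 15 libraries with group means within a ratio of 1.16. Orai3 ranged from 15.2 to 48.0 CPM, with means of 27.9 ± 12.6 CPM in M0 and 38.2 ± 8.78 CPM after CaP microrods. Its M0 replicates measured 15.2, 40.3 and 28.3 CPM, wider than any difference between group means. The promoter of Orai1, from 250 bases before its start, was compared with those of Itpr2 and Atp2a3, the genes with the highest and the lowest log2 fold change of M1 against M2. Sequences are from RefSeq (GRCm38.p6), 5′ to 3′ on the gene's strand and ending at the base before the start. Capitals mark GC boxes (GGGCGG on either strand) and, in Orai1, 1 interferon-gamma activated site (TTCNNNGAA).
Orai1, chr5:123014824-123015073, plus strand: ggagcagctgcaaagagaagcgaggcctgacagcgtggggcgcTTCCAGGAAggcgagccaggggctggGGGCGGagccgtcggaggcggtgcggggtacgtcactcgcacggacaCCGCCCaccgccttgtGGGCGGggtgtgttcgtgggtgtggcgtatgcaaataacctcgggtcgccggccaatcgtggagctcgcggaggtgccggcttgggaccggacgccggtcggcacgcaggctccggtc
Itpr2, chr6:146502224-146502473, minus strand: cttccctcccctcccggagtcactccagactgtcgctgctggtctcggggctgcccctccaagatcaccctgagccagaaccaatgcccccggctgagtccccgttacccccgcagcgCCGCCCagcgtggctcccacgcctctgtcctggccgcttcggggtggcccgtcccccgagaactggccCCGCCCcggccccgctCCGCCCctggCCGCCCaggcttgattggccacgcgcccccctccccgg
Atp2a3, chr11:72960919-72961168, plus strand: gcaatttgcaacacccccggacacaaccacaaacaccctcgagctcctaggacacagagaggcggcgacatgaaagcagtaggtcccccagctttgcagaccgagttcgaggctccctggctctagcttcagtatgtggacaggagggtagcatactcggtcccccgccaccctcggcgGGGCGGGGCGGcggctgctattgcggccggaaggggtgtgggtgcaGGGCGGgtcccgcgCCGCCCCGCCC
The upstream stretches hold 3, 4 and 5 GC boxes in that order. In windows of 300 bases reaching 50 past the start, which the table gave for 8 of the 10 genes, all 9 windows (Atp2b1 has 2) held a GC box against 35.7% of all 32851 windows, and none held TATAAA against 13.6%. The interferon-gamma activated site was in the Orai1 window alone, against 8.30% of all windows, and the NFAT core GGAAA (either strand) in those of Orai2, Orai3 and Atp2b1, against 61.3%. GC boxes of Atp2b1 and Atp2a3 overlap each other, as does a GC box with the NFAT core of Orai2. The windows of these genes held 57.7% to 79.3% G and C, against a median of 52.7% over all windows. The motif shares were not adjusted for this. A match of letters is a description only.

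Itpr2, an IP3 receptor with high sensitivity to IP3, gave the one call. It measured 3.01, 2.80 and 3.79 CPM in M1 and 2.05, 0.658 and 1.29 CPM in M2, from 35, 41 and 39 counts and 30, 5 and 90 counts. All M1 libraries were above all M2 libraries, a separation found for 29.4% of all genes in either direction. The log2 fold change of M1 against M2 was 1.19 (SE 0.33, 95% interval 0.48 to 1.90, 2.28-fold, edgeR adjusted p 0.0252). The call was lost without M1 replicate 1 (adjusted p 0.0561), M1 replicate 3 (0.0954) or M2 replicate 3 (0.134), and when the 6 libraries of M1 and M2 were fitted alone (0.0987). Without the 3 libraries apart on the second component, log2 fold change was 1.03 (adjusted p 0.0230). The M0 libraries, at 2.03, 2.47 and 1.16 CPM, were below all M1 libraries, where 32.2% of all genes did not overlap in either direction. The log2 fold change of M1 against M0 was 0.69 (95% interval -0.0044 to 1.37, adjusted p 0.183). After CaP microrods Itpr2 measured 1.39, 1.97 and 1.59 CPM and after SiO2 microrods 2.25, 1.44 and 2.02 CPM, both inside the M0 range.

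Itpr1, the other IP3 receptor followed, ranged from 4.01 to 7.22 CPM with group means from 4.68 ± 1.07 CPM after CaP microrods to 6.15 ± 1.02 CPM in M1. Its SiO2 microrod libraries (4.89 to 5.15 CPM) lay just below those of M0 (5.22 to 6.11 CPM), with a log2 fold change of -0.19 (SE 0.22, adjusted p 0.860). In that comparison 18% of all genes did not overlap. Annotated genes on the other strand overlap the exons of Itpr1, Orai1 and Atp2a2, and the library protocol keeps no strand. Any single overlapping gene covers at most 1.36% of the exon bases. Itpr1 has overlaps of 0.590% and 0.988%.

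The 2 SERCA pumps ranked the groups differently, Atp2a2 highest in M0 and Atp2a3 highest after CaP microrods. Atp2a2 (SERCA2), which fills the store in most cells, measured 37.2, 37.3 and 37.1 CPM in M0, 28.5, 30.8 and 25.0 CPM in M2, 28.1, 35.1 and 24.0 CPM after CaP microrods and 26.6, 27.8 and 35.5 CPM after SiO2 microrods. M0 was above all of these 9 libraries. Groups did not overlap M0 for 15.2% (M2), 17.4% (CaP microrods) and 18% (SiO2 microrods) of all genes. The log2 fold changes against M0 were -0.41 for M2 (adjusted p 0.308), -0.36 for CaP microrods (0.338) and -0.31 for SiO2 microrods (0.666). The M1 libraries spanned the M0 values, at 42.6, 36.2 and 27.4 CPM.

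Atp2a3 (SERCA3), the pump of haematopoietic cells with low affinity for Ca2+, measured 6.69, 6.44 and 5.44 CPM in M0, 14.1, 6.05 and 12.3 CPM in M2, and 5.58, 12.8 and 15.2 CPM after CaP microrods. In each of M2 and CaP microrods, 2 libraries were above all M0 libraries and 1 lay within the M0 range. These 2 lower libraries are M2 replicate 2, one of the 3 apart on the second component, and CaP replicate 1. The M1 libraries (2.92, 5.88 and 6.71 CPM) and SiO2 microrod libraries (6.36, 7.49 and 7.65 CPM) overlapped M0. The log2 fold change against M0 was 0.82 (SE 0.34, 95% interval 0.07 to 1.58, adjusted p 0.244) for CaP microrods, 0.83 (SE 0.38, adjusted p 0.283) for M2 and 0.19 (SE 0.34, adjusted p 0.930) for SiO2 microrods. Without CaP replicate 1 the first became 1.14 (adjusted p 0.0302), a call, in a fit that called 743 genes (4.47%), and without CaP replicate 3 it became 0.50 (adjusted p 0.679). For M1 against M2 it was -1.11 (adjusted p 0.0756), with a call without M2 replicate 2 (-1.45, adjusted p 0.0152) or CaP replicate 1 (adjusted p 0.0265), and -0.83 without M1 replicate 1. Between the rods the log2 fold change was 0.63 (95% interval -0.11 to 1.37, adjusted p 1.00), an interval that reaches 2.58-fold on the CaP side.

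Atp2b1 (PMCA1), the pump that returns Ca2+ to the outside, was the most abundant of the 10 in CPM. It measured 184, 135 and 142 CPM in M0, 142, 119 and 127 CPM in M1 and 117, 93.6 and 119 CPM in M2. After CaP microrods it measured 141, 182 and 159 CPM, and after SiO2 microrods 149, 142 and 163 CPM. The M2 libraries lay below all M0, M1 and rod libraries. Their highest (119.36 CPM) nearly met the lowest of M1 (119.43 CPM). Groups did not overlap M2 for 15.2% (M0), 29.4% (M1), 12.3% (CaP microrods) and 15.5% (SiO2 microrods) of all genes. The log2 fold change of M2 against M0 was -0.48 (SE 0.16, 95% interval -0.83 to -0.13, adjusted p 0.131), under the fold limit and over the p limit. After CaP and SiO2 microrods it was 0.06 (95% interval -0.31 to 0.43) and -0.02 (95% interval -0.39 to 0.35) against M0.

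**Figure D2:**
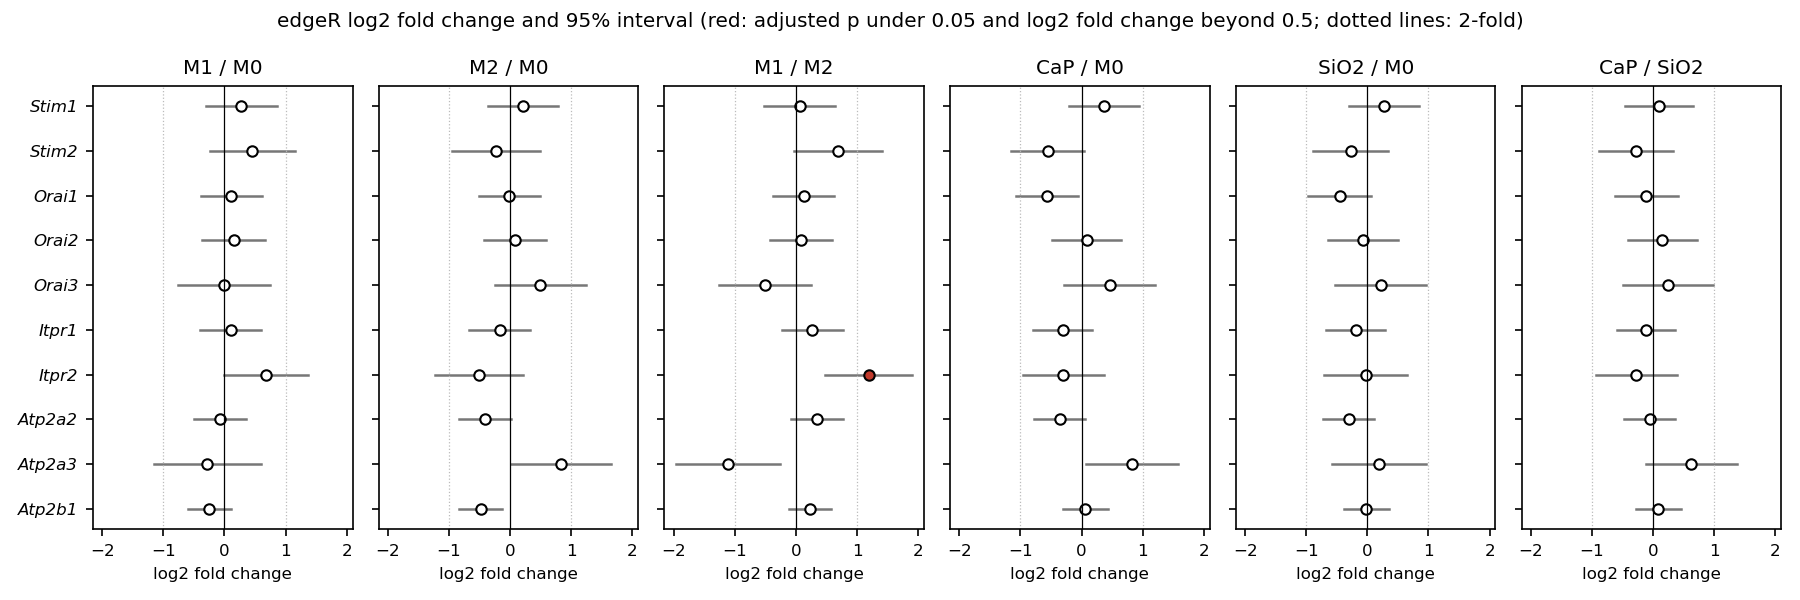
log2 fold change with its 95% interval for the 10 genes in 6 comparisons (edgeR; dotted lines mark 2-fold). Only Itpr2 in M1 against M2 (1.19) is filled as called, and in SiO2 microrods against M0 every interval lies within 2-fold.

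Set beside M1 and M2 rather than M0, the rod groups also gave 0 called genes of 10, against 12.7% (CaP microrods against M1), 10.5% (SiO2 microrods against M1), 4.46% (CaP microrods against M2) and 3.65% (SiO2 microrods against M2) of all genes. At an unadjusted p under 0.05 there were 4, 3, 2 and 1 of the 10, beside 26.5%, 21.8%, 11.9% and 11.4% of all genes. In CaP microrods against M1 these were Stim2 (log2 fold change -1.02, adjusted p 0.0565), Orai1 (-0.68, 0.0717), Itpr2 (-0.98, 0.0545) and Atp2a3 (1.10, 0.0859). DESeq2 called Stim2 and Itpr2 there, and Atp2b1 in CaP microrods against M2, where edgeR gave 0.54 (adjusted p 0.0927). Over all genes DESeq2 called 2421 and 863. This is 4.6% and 1.64% of the 52590 given a p-value, low-count genes that could not be called among them. Of the 16654 genes left by its filter, edgeR called 2108 and 742. Without the 3 libraries apart on the second component, edgeR called all of Stim2, Orai1, Itpr2 and Atp2a3 in CaP microrods against M1, where 21.7% of all genes were then called. Leaving out 1 library called Stim2 without M1 replicate 3 (adjusted p 0.0364), M2 replicate 2 (0.0443) or M2 replicate 3 (0.0444), Itpr2 without M2 replicate 1 (0.0460) or M2 replicate 2 (0.0389), Orai1 without CaP replicate 1 (0.0363), and Atp2a3 without CaP replicate 1 (0.0131) or M2 replicate 2 (0.0367).

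Levels can be compared between genes only per length, as CPM per kilobase of exon (union of all annotated exons). In M0 the order was Orai3 (13.0 ± 5.88 CPM per kilobase), Atp2b1 (10.1 ± 1.74), Atp2a2 (6.11 ± 0.0169), Orai1 (2.43 ± 0.364), Orai2 (1.91 ± 0.297), Stim1 (1.21 ± 0.355), Atp2a3 (1.17 ± 0.125), Stim2 (0.986 ± 0.262), Itpr1 (0.314 ± 0.0257) and Itpr2 (0.127 ± 0.0451). Orai3 and Atp2b1, whose SDs overlap, trade places when the length of the longest coding transcript is used.

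In the other families than STIM, 1 gene held most of the level per kilobase. Orai3 held 73.2% ± 7.77 of the ORAI level in M0 and 82.8% ± 3.04 after CaP microrods. Itpr3, an IP3 receptor outside the 10, held 82.7% ± 1.54 of the IP3 receptor level in M0, with Itpr2 at 5.00% ± 1.68 in M0 and 8.77% ± 1.22 in M1. Among the SERCA pumps Atp2a3 held 16.1% ± 1.46 in M0, 15% ± 7.36 in M1, 30.3% ± 10.2 in M2, 30.0% ± 11.7 after CaP microrods and 21.7% ± 1.90 after SiO2 microrods. All 9 libraries of M2 and the rods (lowest 18.5%, 18.6% and 19.9% for M2, CaP and SiO2) lay above the M0 libraries (14.4% to 17.2%). M1 ranged from 7.32% to 22.0%, so its highest library was also above M0. The rods also lay apart from M0 in the Itpr1 share of the IP3 receptor level. It was 8.30% to 11.3% for CaP and 10.7% to 11.3% for SiO2 microrods, below 11.7% to 12.6% in M0. How often other shares separate in this way was not counted. Stim2 made up 45.3% ± 13.5 of the STIM level in M0 and 30.8% ± 5.25 after CaP microrods. Atp2b1 held 98.5% ± 0.304 of the PMCA level in M0 and 95% ± 0.457 in M1, where Atp2b4 held the rest. These shares are descriptions and were not tested.

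**Figure D3:**
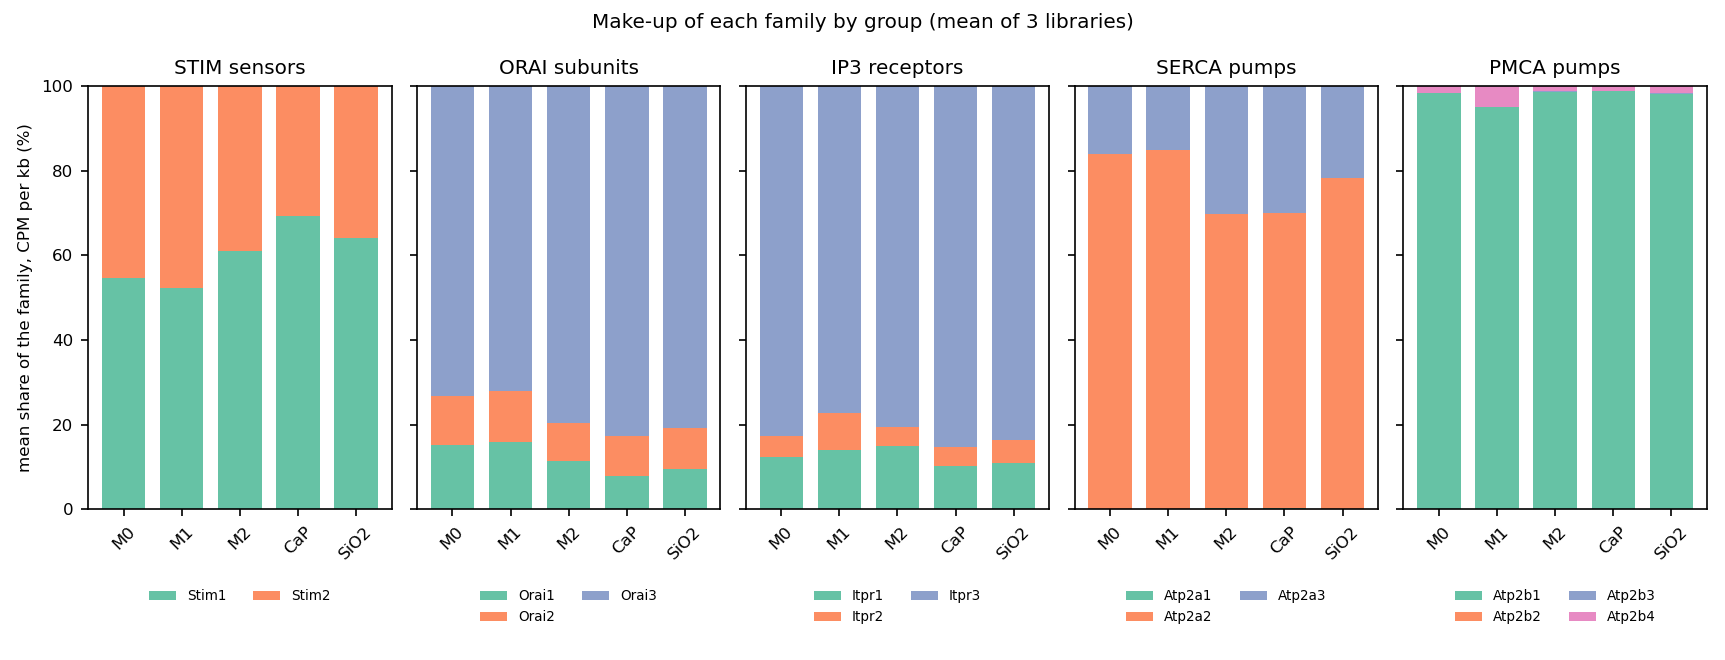
Mean share of each gene in the summed CPM per kilobase of its family, by group (stacked to 100%, mean of 3 libraries). Orai3, Itpr3, Atp2a2 and Atp2b1 hold the largest shares in every group, and the Atp2a3 share is about 30% in M2 and after CaP microrods against 16.1% in M0.

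The other calcium genes gave the background of the pathway: 81 genes in 7 lists, of which 56 could be tested in the 15 libraries and 57 in the 9 libraries of M0 and the rods. In M1 against M0, 4 of 56 were called (3 higher, 1 lower), 7.14% against 14.1% of all genes. Atp2b4 (PMCA4) rose from 1.97 ± 0.660 to 5.53 ± 0.666 CPM (log2 fold change 1.39, adjusted p 0.00335) and Mcub, which damps the mitochondrial uniporter, from 108 ± 9.10 to 198 ± 16.8 CPM (0.87, 0.00542). Both calls were kept without any 1 library. Letm1, a mitochondrial inner membrane protein, rose from 14.3 ± 4.65 to 46.0 ± 13.6 CPM (1.70, 0.0112), not called without M0 replicate 1 (adjusted p 0.0571). Cracr2b, a regulator of ORAI channels, fell from 1.44 ± 0.356 to 0.295 ± 0.349 CPM (-2.29, 0.0208), not called without M1 replicate 1 (0.0563) or 2 (0.0986), or with the 6 libraries of M1 and M0 fitted alone (0.0632).

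In M2 against M0, 5 of 56 were called (3 higher, 2 lower), 8.93% against 4.13% of all genes. Mcub rose to 215 ± 57.4 CPM (log2 fold change 0.99, adjusted p 0.00669) and was called without any 1 library. The pore Mcu fell from 33.0 ± 5.57 to 16.3 ± 4.37 CPM (-1.003, 0.0122), not called without M0 replicate 1 (0.0629) or M2 replicate 1 (0.0573). Esyt1, a tether of the reticulum to the plasma membrane, rose from 19.0 ± 3.86 to 33.7 ± 3.38 CPM (0.82, 0.0324), and was not called in 5 of 15 fits that left out 1 library (M0 replicates 1 and 3, M2 replicates 1 and 3, SiO2 replicate 3; largest adjusted p 0.158). Camk2d, a calmodulin kinase, fell from 16.7 ± 1.54 to 8.64 ± 2.75 CPM (-0.99, 0.0183), not called in 4 such fits (M0 replicates 1 and 3, M2 replicates 1 and 3; largest 0.0967). Camk1, another, rose from 40.2 ± 6.74 to 87.3 ± 39.8 CPM (1.12, 0.0492) and was called in 1 of the 15, without M2 replicate 1 (0.00176). With the 6 libraries of M2 and M0 fitted alone none of the 5 was called: adjusted p was 0.190 for Mcub, 0.230 for Mcu, 0.266 for Esyt1, 0.277 for Camk2d and 0.379 for Camk1.

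M1 against M2 called 6 of 56 (3 higher, 3 lower), 10.7% against 16.1% of all genes. Called without any 1 library were Atp2b4 (log2 fold change 2.37, adjusted p 6.47e-05), Mcu (1.11, 0.00186) and Cracr2b (-3.02, 0.00181). Cracr2b rests on few counts, at 0 to 0.680 CPM in M1, where 1 count is 0.067 to 0.099 CPM. Stimate, a partner of STIM proteins (0.90, 0.0341), Camk1 (-1.03, 0.0283) and Camk1d (-0.94, 0.0305) were not called in 6, 5 and 4 of 15 such fits, each time without a library of M1 or M2, with largest adjusted p of 0.134, 0.108 and 0.107. With the 6 libraries of M1 and M2 fitted alone, Stimate (0.0842) and Camk1 (0.147) were not called.

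Against M0, the rods called 0 of 57 other calcium genes each, and 0 between them. At an unadjusted p under 0.05 there were 12 for CaP microrods, 5 for SiO2 microrods and 0 between them, where 18%, 9.27% and 1.87% of all genes lay under it. DESeq2 called 3 (Camk1, Canx and Mcur1), 1 (Camk1) and 0, beside 590, 123 and 15 genes in all. These are 1.30%, 0.272% and 0.0331% of the 45264 genes given a p-value. Low-count genes that could not be called are among them, so these shares are low as a background. Camk1 measured 63.8 to 76.2 CPM after CaP microrods and 73.8 to 99.6 CPM after SiO2 microrods, above all M0 libraries (32.5 to 44.6 CPM). No overlap with M0 was found for 17.4% (CaP microrods) and 18% (SiO2 microrods) of all genes tested, and edgeR did not call Camk1.

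**Figure D4:**
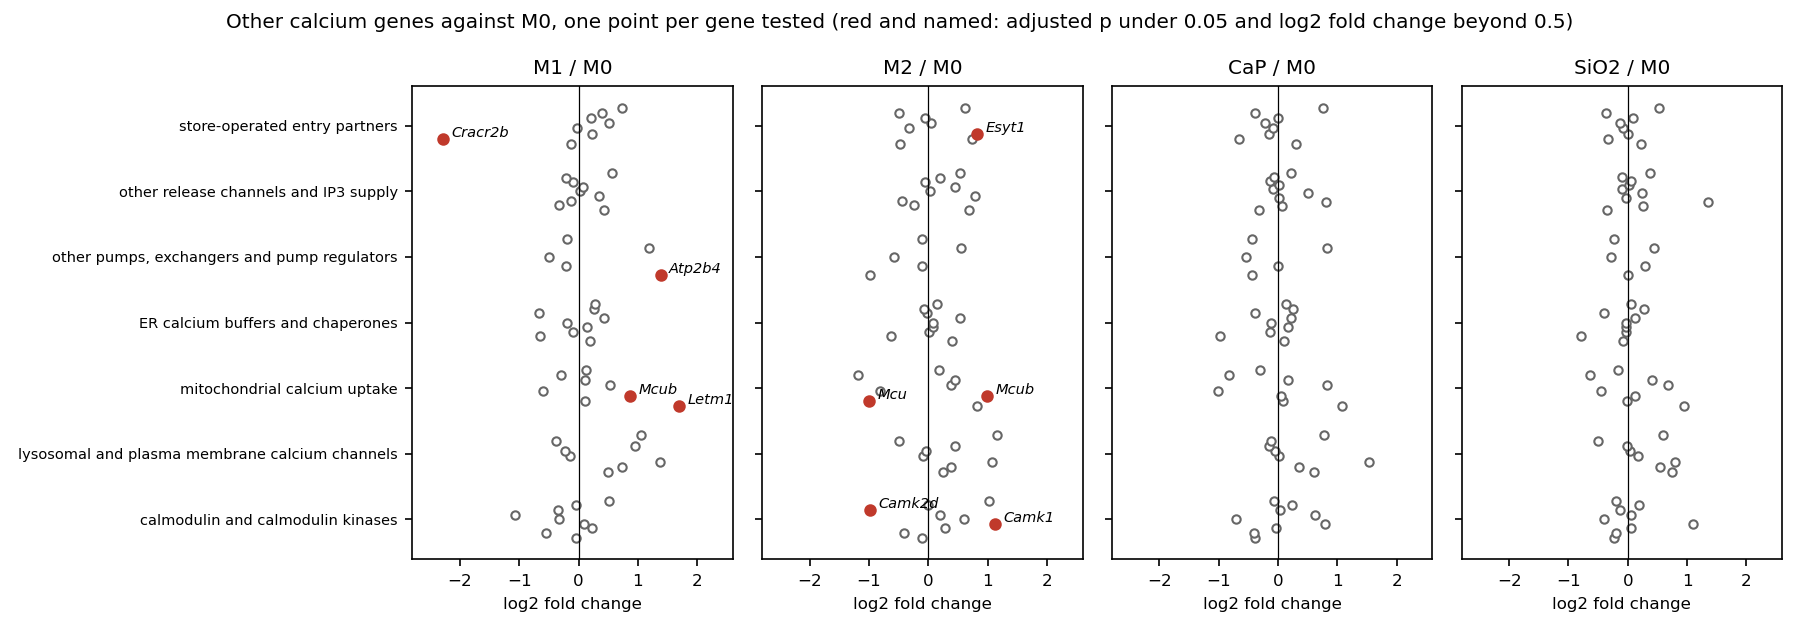
log2 fold change against M0 of each tested calcium gene outside the 10, in 7 lists (rows) and 4 comparisons (panels). Called genes are filled and named: 4 in M1, 5 in M2 and 0 for either rod type.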

How the data were processed

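RNA was sequenced from bulk MH-S cells with a Smart-seq2 protocol, which keeps no strand and no molecular identifiers, so intervals cover counting error and the spread between libraries alone. The authors deposited whole-number counts per gene and library, made with the nf-core/rnaseq pipeline (STAR alignment, Salmon quantification) on GRCm39; Salmon estimates need not be whole, so these may have been rounded. Per the labels, 15 libraries fell into 5 groups of 3. Gene symbols and exon lengths came from the GENCODE annotation of GRCm38, which named 51487 of 78317 identifiers, and all 10 genes matched 1 identifier each. CPM were computed on library sizes scaled by TMM.

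Counts were tested with edgeR 4.0.16 (R 4.3.3, TMM, filterByExpr, quasi-likelihood F test, Benjamini-Hochberg adjustment over all genes tested). The 15 libraries were fitted together, and M0 with both rod groups (9 libraries) for the comparisons among these 3, as in the study. The alternative test was DESeq2 1.42.0, run without the edgeR filter on low counts. Its own filter leaves genes of low mean count without an adjusted p, so these cannot be called. Its shares are over all genes with a p-value, these among them, which makes the shares low beside those of edgeR. The models were also run on simulated counts, drawn independently for each library. These lack the correlations between libraries seen here, so they do not measure error rates in these data. A 3 against 3 exact permutation test cannot go below p = 0.1 and was not used. The 10 genes and all gene lists were chosen with earlier results of these data known. Of the other calcium genes, those called in M1 against M0, M2 against M0, M1 against M2, either rod against M0 or between the rods were named, at most 4 per direction, list and comparison. No genes of like pattern were named, as none of the 10 was called against M0 or between the rods. Alternatives were DESeq2, its size factors, no filter, at least 10 counts in every library, the replicate number as a block, counts thinned to the smallest library, other libraries in the model, no fold limit, and leaving out each library. The legacy quasi-likelihood method, the 3 libraries apart on the second component left out together, and the longest coding transcript as length were added after seeing the data. Depth was 8459643 to 39201265 in M0, 10117846 to 14879931 in M1, 8594947 to 68750050 in M2, 14632876 to 50729211 for CaP microrods and 12646926 to 24990730 for SiO2 microrods. No pair of libraries was identical.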

Additional observations from a re-analysis of the deposited data

How the results depend on the processing

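The count of genes called among the 10 kept its value under every alternative for M1, M2 and SiO2 microrods against M0 and between the rods, at 0. For M1 against M2 (1) it was 2 with DESeq2, 2 with no filter on low counts and 2 without the 3 libraries apart on the second component, Atp2a3 being the addition, and 0 with at least 10 counts in every library, which removes Itpr2 (5 counts in M2 replicate 2), and 0 with the libraries of these groups alone. Leaving out each library gave 0 to 2. For CaP microrods against M0 (0) leaving out each library gave 0 to 1, Atp2a3 without CaP replicate 1. For both rod types against M1 and M2 (0) it was 3 with DESeq2, 1 with DESeq2's size factors in edgeR, 1 with no filter, 1 with thinned counts, 1 with the libraries of these groups alone and 4 without the 3 libraries, and 0 to 3 leaving out each library. The causes were not tested.

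None of the log2 fold changes that changed sign was called in either fit. Orai1 in M1 against M0 became -0.11 with thinned counts. In M2 against M0 it became 0.0023 with DESeq2, 0.020 with no filter and 0.0048 with the legacy quasi-likelihood method. Itpr2 in SiO2 microrods against M0 became 0.049 with thinned counts, and Itpr1 between the rods 0.087. Deviations of same-numbered libraries correlated over 0.1 in 14 of 30 pairs (-0.70 to 0.60). All 3 pairs did for M1 with M0 (0.21 to 0.29) and for M2 with SiO2 microrods (0.13 to 0.51), and in no other comparison. With the replicate number as a block, Itpr2 in M1 against M2 stayed the 1 call (adjusted p 0.0443), while Camk1 in M2 against M0 (0.0638) and Stimate (0.0621) and Camk1d (0.0508) in M1 against M2 were not called. Orai3 in M1 against M0 became 0.0034 and Itpr2 in SiO2 microrods against M0 became 0.0096. The count over all genes moved more. For CaP microrods against M0 (68) it was 13 to 743 leaving out each library (13 without M0 replicate 1, 743 without CaP replicate 1), 16 without the 3 libraries, 28 with the block, 40 with thinned counts, 109 with all 15 libraries, 178 with no filter and 590 with DESeq2. For SiO2 microrods against M0 (10) it was 0 (without M0 replicate 1) to 123 (DESeq2), between the rods (4) 1 to 15, for M1 against M0 (2342) 1511 to 3610, for M2 against M0 (687) 98 to 1361 (without M2 replicate 2), and for M1 against M2 (2679) 1377 to 5264. Against M1 and M2, CaP microrods (2108 and 742) ranged over 1350 to 3882 and 252 to 946, and SiO2 microrods (1741 and 608) over 1114 to 2434 and 269 to 756.

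Leaving out each library in turn moved these log2 fold changes across 0: Orai1 (-0.014 to 0.21), Orai2 (-0.0044 to 0.27), Orai3 (-0.35 to 0.37), Itpr1 (-0.031 to 0.22), Atp2a2 (-0.22 to 0.083) and Atp2a3 (-0.49 to 0.00048) in M1 against M0. The same held for Stim1 (-0.024 to 0.46), Stim2 (-0.44 to 0.045), Orai1 (-0.16 to 0.11) and Orai2 (-0.078 to 0.16) in M2 against M0. It held for Orai2 (-0.093 to 0.25) and Atp2b1 (-0.047 to 0.19) in CaP microrods against M0, for Orai2 (-0.28 to 0.067), Orai3 (-0.11 to 0.60), Itpr2 (-0.18 to 0.14) and Atp2b1 (-0.10 to 0.12) in SiO2 microrods against M0, and for Stim1 (-0.018 to 0.25), Orai1 (-0.31 to 0.0097), Orai2 (-0.024 to 0.36), Atp2a2 (-0.22 to 0.081) and Atp2b1 (-0.031 to 0.15) in CaP against SiO2 microrods. By CPM without length, Atp2b1 ranked 1 of 10 in M0, Atp2a2 2 and Orai3 3. Itpr2 rested on 5 to 90 counts per library.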
